A study of Mus musculus with 42 samples.

Results

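The 39 Hox genes of the mouse, 11 in cluster A, 10 in B, 9 in C and 9 in D, were followed through the RNA-seq counts of sorted spermatogonia with and without the chromatin remodeler CHD8. They were taken by symbol from the 27179 genes of the count table, as every gene named Hoxa, Hoxb, Hoxc or Hoxd with a number. Spermatogonia are not known for high expression of these genes, so the Hox clusters served as a readout of other lineages. The question was whether any rise in mutant cells follows the transcripts of somatic testis cells from library to library.

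Hox proteins are homeodomain transcription factors that give segments of the embryo their identity along the body axis. The genes of a cluster lie in a row on a chromosome, genes with lower numbers are active earlier and more anteriorly in the embryo, and Polycomb complexes keep the clusters silent where they are not used. Mesenchymal cells of adult organs retain Hox transcripts that reflect the position from which the organ came, and the gonad comes from the level of the mesonephros in the posterior trunk.

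The cells came from C57BL/6J male mice at 10 dpp. *Ddx4-Cre*; *Chd8* +/F mice served as the control and *Ddx4-Cre*; *Chd8* F/- mice as the mutant, so that the controls also carried the Cre transgene and a floxed allele. *Ddx4* drives Cre in germ cells, and somatic cells of the same testis keep their floxed allele. By genotype, somatic cells of the mutant also carry the minus allele, where those of the control carry a wild-type allele. The somatic cells of both groups therefore differ in *Chd8* too. Recombination removes exons 11 to 13 of *Chd8*, which a count of the whole gene cannot check. Thy1+ and c-Kit+ spermatogonia were enriched with magnetic beads, from the testes of 3 pups for each analysis, and each of the 4 groups has 3 libraries. No source says which pups gave which library, so p-values measure the spread between these libraries. Library totals ran from 32266861 to 45396233 counts.

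Transcripts of marker genes of other cell types were counted in every library, and which cells made them was not tested. The paper reports checks of purity by immunostaining, RT-qPCR and RNA-seq. None of the genes on lists of Sertoli, Leydig, peritubular myoid, stromal, endothelial, macrophage or germ cell markers was at 0 in a library, and *Ms4a2* of the mast cell list was at 0 in 5 libraries. Levels are counts scaled to the library totals, with TMM factors over the 12 libraries (CPM). The summed stromal list (collagens, *Dcn*, *Lum*, *Pdgfra*, *Tcf21* and *Dpt*) had 13258 ± 1804 CPM in control Thy1+ and 2081 ± 236 CPM in control c-Kit+ spermatogonia (SD, n = 3). In a bulk sample, more cells of a type and more RNA per cell cannot be told apart.

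The following promoter windows are shown because *Hoxd3*, *Hoxd4*, *Hoxd8*, *Hoxd9* and *Hoxd10* lie side by side on chromosome 2 and moved together, while *Hoxb4* on chromosome 11 moved the other way in the same cells. Each window is the 250 bases before the gene's start in the RefSeq table (GRCm38.p6, the build of the counts), 5′ to 3′ on the + strand. Capitals mark a match on either strand to TATAAA (the TATA box), to GGGCGG (the GC box), to CCAAT (the box of that name) or to TGATTNAT (a motif of PBX and HOX pairs), and no match shown overlaps another.
Hoxd3 chr2:74711743-74711992: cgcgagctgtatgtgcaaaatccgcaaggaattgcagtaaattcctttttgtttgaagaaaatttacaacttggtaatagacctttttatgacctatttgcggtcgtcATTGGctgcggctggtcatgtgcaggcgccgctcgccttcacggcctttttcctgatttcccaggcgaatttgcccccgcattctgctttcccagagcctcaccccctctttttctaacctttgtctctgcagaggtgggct
Hoxd4 chr2:74721728-74721977: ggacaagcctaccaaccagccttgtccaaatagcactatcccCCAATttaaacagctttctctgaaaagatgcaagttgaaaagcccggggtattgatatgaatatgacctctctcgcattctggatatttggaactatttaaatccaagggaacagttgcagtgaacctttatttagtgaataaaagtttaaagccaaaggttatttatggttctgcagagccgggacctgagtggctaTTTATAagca
Hoxd8 chr2:74704365-74704614: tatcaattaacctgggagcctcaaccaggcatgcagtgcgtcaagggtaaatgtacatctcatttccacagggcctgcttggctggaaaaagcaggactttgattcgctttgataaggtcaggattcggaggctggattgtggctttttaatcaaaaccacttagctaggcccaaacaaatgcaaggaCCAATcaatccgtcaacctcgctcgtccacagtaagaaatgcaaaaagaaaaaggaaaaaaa
Hoxd9 chr2:74697513-74697762: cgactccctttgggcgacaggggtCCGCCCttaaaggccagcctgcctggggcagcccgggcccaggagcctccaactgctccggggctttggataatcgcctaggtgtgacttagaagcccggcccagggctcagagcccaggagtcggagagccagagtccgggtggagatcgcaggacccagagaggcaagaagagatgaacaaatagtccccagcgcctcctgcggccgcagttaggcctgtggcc
Hoxd10 chr2:74691641-74691890: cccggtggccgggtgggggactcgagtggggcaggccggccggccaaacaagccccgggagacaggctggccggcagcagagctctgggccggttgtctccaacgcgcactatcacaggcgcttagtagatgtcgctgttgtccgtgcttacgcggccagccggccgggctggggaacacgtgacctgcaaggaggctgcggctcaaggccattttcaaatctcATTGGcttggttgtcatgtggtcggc
Hoxb4 chr11:96318017-96318266: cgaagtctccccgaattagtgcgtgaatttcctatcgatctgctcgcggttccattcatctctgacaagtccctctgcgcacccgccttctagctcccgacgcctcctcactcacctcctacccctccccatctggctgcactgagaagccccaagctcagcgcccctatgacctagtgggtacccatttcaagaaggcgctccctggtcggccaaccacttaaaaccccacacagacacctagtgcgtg

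Of these 5 HoxD windows, 4 held a CCAAT box, 1 a TATA box, 1 a GC box and 0 the PBX-HOX motif. The CCAAT box began 62 bases before the start in *Hoxd8*, 26 in *Hoxd10*, 142 in *Hoxd3* and 208 in *Hoxd4*. Of all 32851 windows in the table, 33.9% held a CCAAT box, 12.4% a TATA box, 32.7% a GC box and 2.83% the PBX-HOX motif. Over the 24 windows found for 22 Hox genes, 14 held a CCAAT box, 10 a GC box, 4 a TATA box and 2 the PBX-HOX motif, and the *Hoxb4* window held none of them. The starts used for *Hoxd8* and *Hoxd10* lie 874 and 57 bases upstream of those in the count table. These matches describe the letters in the window and do not show a site in use.

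The clusters differed in level (the plot of Hox levels in every library). To compare genes, CPM was divided by the exonic length in kilobases. *Hoxd9* had 24.8 and *Hoxd8* 24.0 CPM per kb averaged over the 12 libraries, followed by *Hoxd4* with 10.1, *Hoxc6* with 7.11, *Hoxd10* with 6.57, *Hoxd3* with 4.91 and *Hoxb9* with 3.69. In control c-Kit+ spermatogonia *Hoxd8* had 10.0 ± 0.311 and *Hoxd9* 8.73 ± 0.797 CPM per kb (SD, n = 3), and in control Thy1+ spermatogonia the order was the other way, with 27.1 ± 2.81 and 29.6 ± 6.04 CPM per kb. In Thy1+ libraries that difference was smaller than the SD of *Hoxd9*. Averaged over the 12 libraries, all other Hox genes lay below 3 CPM per kb. Cluster D supplied 55.0% to 56.9% of the summed Hox CPM in control c-Kit+, 63.1% to 67.3% in mutant c-Kit+, 61.2% to 67.0% in control Thy1+ and 65.6% to 70.6% in mutant Thy1+ libraries.

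Levels differed with the number of the gene. The 15 genes numbered 4 to 8 had a median of 1.70 CPM per kb, the 7 genes numbered 9 to 10 a median of 1.81, and the 8 genes numbered 1 to 3 a median of 0.736. The 9 genes numbered 11 to 13 had a median of 0.0623 and at most 0.585 CPM per kb (*Hoxb13*). All 39 genes had a count in at least 1 library, 32 had a count in all 12, and 4 stayed under 10 counts in every library. *Hoxd12* was at 0 in the 3 control c-Kit+ libraries, where 3 counts correspond to at most 0.0911 CPM. A count of 0 allows up to 3 if counts are independent. The true limit is higher here, because both reads of a fragment were counted. Intervals and limits of this kind cover counting error only.

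**Figure D1:**
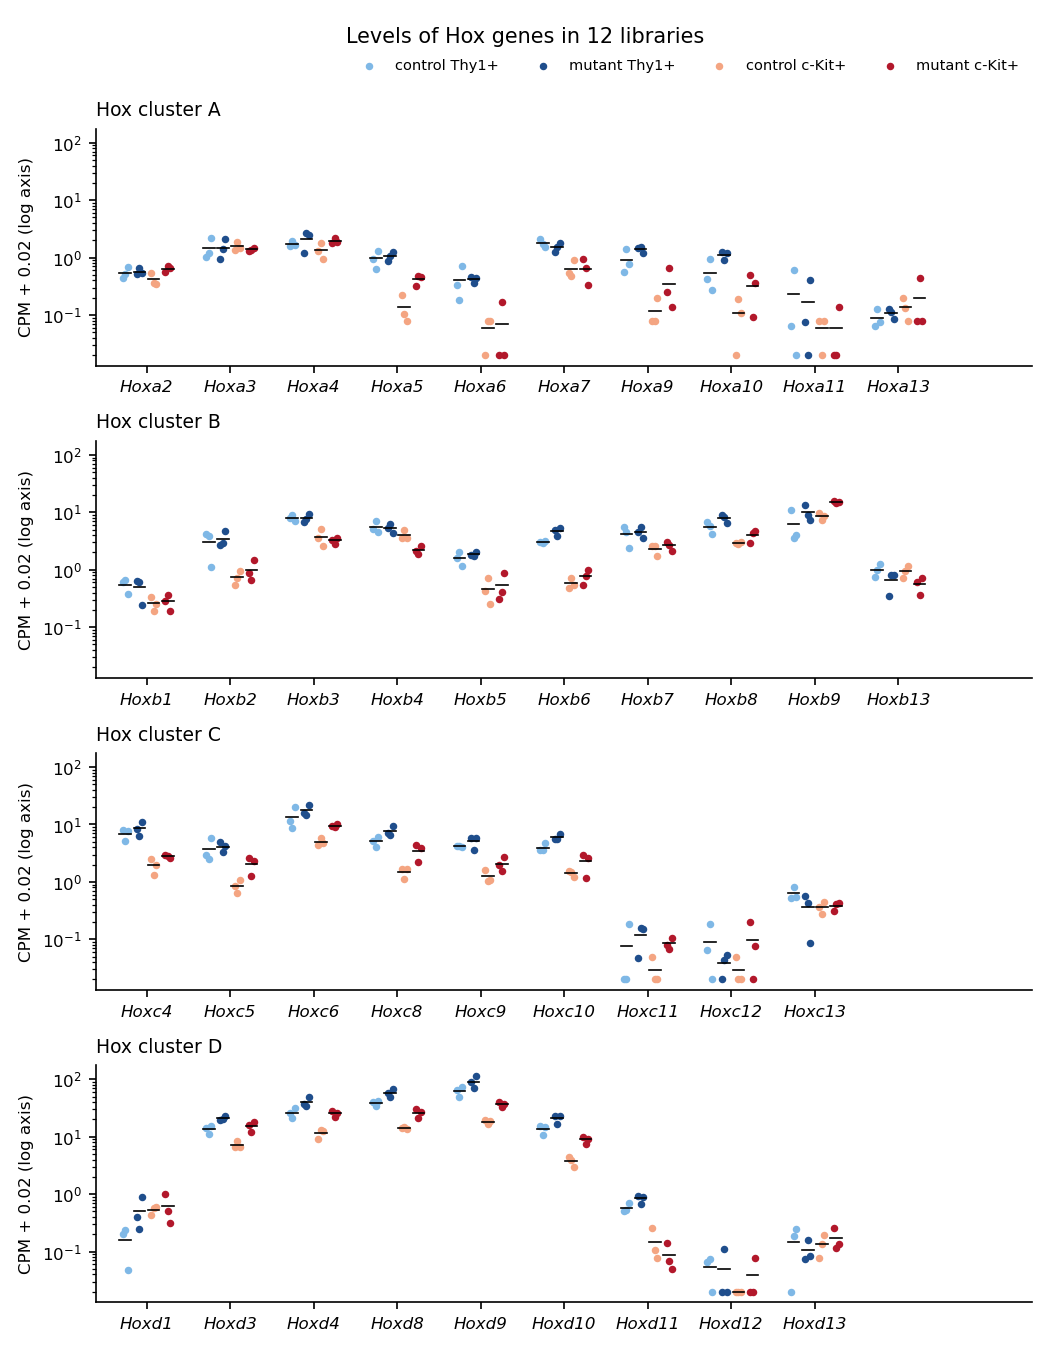
CPM plus 0.02 on a log axis for the Hox genes, by cluster and gene number; each point is a library and each bar the mean of 3 libraries of a group. The points of *Hoxd3* to *Hoxd10* lie above those of the other genes of cluster D in every group, and most genes numbered 11 to 13 lie under 1 CPM.

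In c-Kit+ spermatogonia, which have begun to differentiate, 9 Hox genes were higher in the mutant and 1 was lower by edgeR's quasi-likelihood test (adjusted p under 0.05, log2 fold change beyond 0.5 in either direction), among the 27 Hox genes with enough counts to be tested. The 9 were *Hoxd3*, *Hoxd4*, *Hoxd8*, *Hoxd9* and *Hoxd10*, *Hoxc5*, *Hoxc6* and *Hoxc8*, and *Hoxb9*, and *Hoxb4* fell. Over all 17134 genes tested, 14.8% were called higher and 7.41% lower. The median log2 fold change was 0.48 over the 27 Hox genes and 0.01 over all genes. On a scale set by somatic markers, described further on, the median of all genes shifted to -0.91, and the SE of *Hoxd9* went from 0.11 to 0.24. There 0 of the 9 were called higher, which cannot be told from the 0.374% of all genes. *Hoxb9*, *Hoxc6* and *Hoxd8* had log2 fold changes below 0 on it.

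The 5 HoxD genes moved by similar amounts. *Hoxd9*, which acts in the patterning of the limb and the lumbosacral spine, had 19.8, 16.5 and 18.8 CPM in the control against 40.3, 32.2 and 37.5 CPM in the mutant c-Kit+ libraries. *Hoxd8* had 14.4, 14.6 and 13.7 CPM in control against 30.6, 21.4 and 26.7 CPM in mutant libraries. Each mutant library lay above each control library for both genes, and their log2 fold changes were 0.94 ± 0.11 (SE, adjusted p = 0.00032) and 0.82 ± 0.13 (adjusted p = 0.0011, edgeR, Benjamini-Hochberg adjustment).

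*Hoxd4*, a gene of the hindbrain and neck, had 8.94, 13.2 and 12.3 CPM in control against 27.9, 22.1 and 25.9 CPM in mutant libraries. *Hoxd3*, whose gene spans that of *Hoxd4* without sharing exon bases with it, had 6.55, 8.44 and 6.62 CPM in control against 16.0, 12.1 and 17.8 CPM in mutant libraries. *Hoxd10*, which acts in hindlimb motor neurons, had 4.43, 3.89 and 2.99 CPM in control against 10.0, 7.57 and 9.20 CPM in mutant libraries. None of the 3 genes overlapped between groups, and their log2 fold changes were 1.08 ± 0.15, 1.03 ± 0.17 and 1.18 ± 0.19 (adjusted p = 0.00064, 0.0013 and 0.00098, edgeR). The 5 genes occupy chr2:74691948-74748271 on mm10, next to each other with no other Hox gene between them. Of their neighbours, *Hoxd1* had a log2 fold change of 0.15 ± 0.50 (adjusted p = 0.836, edgeR), and *Hoxd11*, with 0.233, 0.0858 and 0.0581 CPM in control against 0.118, 0.0487 and 0.0289 CPM in mutant libraries, had too few counts to be tested, like *Hoxd12* and *Hoxd13*.

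In cluster C, 3 of the 7 genes tested were higher. *Hoxc6*, a thoracic gene also used in the mammary gland, had 4.43, 5.72 and 4.82 CPM in control against 9.41, 9.08 and 10.1 CPM in mutant libraries, with a log2 fold change of 0.87 ± 0.15 (adjusted p = 0.0015, edgeR). *Hoxc8* had 1.69, 1.11 and 1.68 against 4.37, 2.17 and 3.88 CPM. *Hoxc5* had 0.815, 0.629 and 1.07 against 2.54, 1.24 and 2.31 CPM. Mutant library 2 was the lowest of the mutant libraries for all 3 genes, yet above the controls, and the log2 fold changes of *Hoxc8* and *Hoxc5* were 1.15 ± 0.31 and 1.21 ± 0.36 (adjusted p = 0.014 and 0.023, edgeR). Both calls depended on single libraries. That of *Hoxc5* was lost without control library 2 or mutant library 1 or 3, and that of *Hoxc8* without mutant library 1 or 3, with log2 fold changes of 0.95 to 1.10 in those fits. *Hoxc4* had 2.45, 1.32 and 1.98 against 2.92, 2.85 and 2.58 CPM and was not called (0.48 ± 0.26, adjusted p = 0.171, edgeR), although its groups did not overlap. *Hoxc9* had 1.60, 1.03 and 1.04 against 1.95, 1.51 and 2.66 CPM and *Hoxc10* 1.54, 1.46 and 1.22 against 2.98, 1.17 and 2.63 CPM, with overlapping libraries and no call.

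Cluster B gave both directions. *Hoxb9*, the cluster's gene with the highest level, had 9.72, 7.38 and 8.77 CPM in control against 15.5, 14.8 and 15 CPM in mutant libraries, and the mutant values lay close together and above the controls (0.75 ± 0.13, adjusted p = 0.0016, edgeR). The call was lost in a fit of all 12 libraries, with a log2 fold change of 0.81. *Hoxb4*, known for its role in blood stem cells, had 3.49, 4.89 and 3.48 CPM in control against 2.1, 1.82 and 2.55 CPM in mutant libraries. All mutant libraries lay below the controls, and *Hoxb4* fell by 0.94 on the log2 scale (SE 0.23, adjusted p = 0.0095, edgeR). *Hoxb3* and *Hoxb8*, also well expressed, stayed within overlapping ranges. *Hoxb3* had 3.49, 5.18 and 2.53 against 3.33, 2.82 and 3.59 CPM. *Hoxb8* had 2.85, 2.83 and 3.02 against 2.95, 4.41 and 4.69 CPM. The weaker *Hoxb2*, *Hoxb5* and *Hoxb6* were not called either. *Hoxb2* had 0.524, 0.686 and 0.929 CPM in control against 0.856, 0.633 and 1.45 CPM in mutant libraries. *Hoxb5* had 0.408, 0.686 and 0.232 against 0.295, 0.389 and 0.868 CPM. *Hoxb6* had 0.466, 0.686 and 0.523 against 0.531, 0.754 and 0.984 CPM.

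Cluster A contributed no call. *Hoxa7* had 0.524, 0.458 and 0.871 CPM in control against 0.915, 0.633 and 0.318 CPM in mutant libraries, in overlapping ranges. *Hoxa5*, with 0.204, 0.0858 and 0.0581 against 0.295, 0.462 and 0.434 CPM, and *Hoxa9*, with 0.0582, 0.0572 and 0.174 against 0.236, 0.633 and 0.116 CPM, had too few counts to be tested. *Hoxa3* and *Hoxa11* share 21.4% and 23.4% of their exon bases with genes on the other strand, and the counting had no strand option, so their reads cannot be separated from those of their partners.

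Of the 27 genes tested, 12 had mutant libraries all above and 3 all below the control libraries, against 31.6% and 20.6% of all genes tested. The 12 genes left out for low counts were *Hoxa5*, *Hoxa6*, *Hoxa9*, *Hoxa10*, *Hoxa11*, *Hoxa13*, *Hoxb1*, *Hoxc11*, *Hoxc12*, *Hoxd11*, *Hoxd12* and *Hoxd13*. Of 16 further genes, 7 were tested here, with log2 fold changes from -0.84 ± 0.41 for *Hoxb13* to 0.58 ± 0.41 for *Hoxa2*. By number, 5 of 13 tested genes of numbers 4 to 8 were higher, 3 of 5 of numbers 9 to 10, 1 of 7 of numbers 1 to 3 and 0 of 2 of numbers 11 to 13. The count of genes called higher stayed between 7 and 10 when each library was left out in turn.

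**Figure D2:**
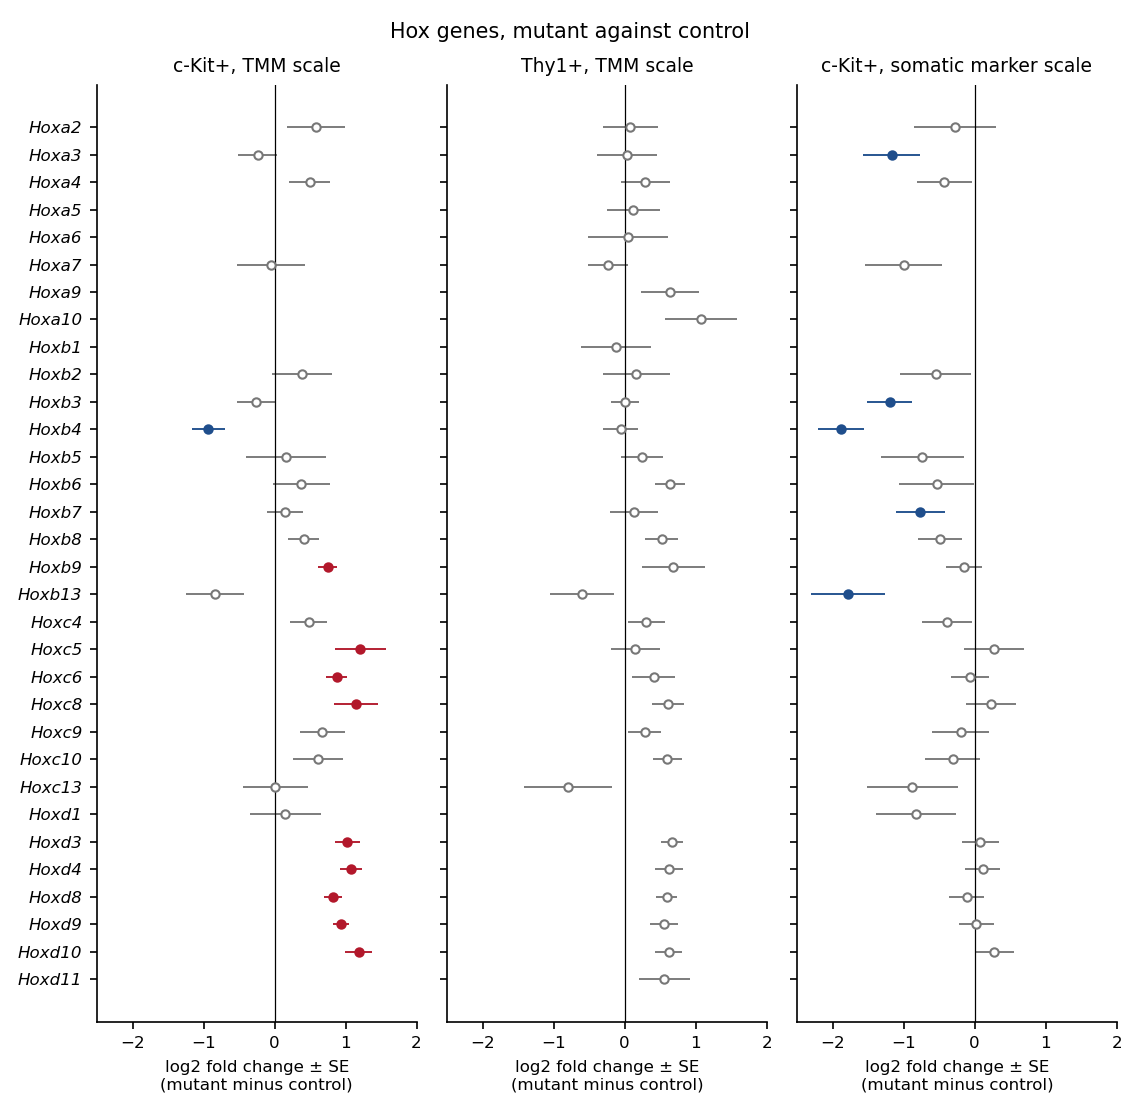
Log2 fold change, mutant minus control, with its SE, for the Hox genes tested in c-Kit+ (left) and Thy1+ (middle) spermatogonia after TMM normalization and in c-Kit+ spermatogonia on the somatic marker scale (right); filled red and blue points are called higher and lower. The 9 genes called higher on the left lie between -0.15 and 0.28 on the right, where *Hoxb9*, *Hoxc6* and *Hoxd8* are below 0. The change of scale shifts all genes by nearly the same amount.

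In Thy1+ spermatogonia, which are enriched for undifferentiated cells, no Hox gene of 32 tested was called by edgeR's quasi-likelihood test, and no gene of all 17416 tested was called either (0%). At an unadjusted p under 0.05, 8 Hox genes were higher and 0 lower, against 4.66% and 7.69% of all genes. The exact test called 0 Hox genes, although it called 20 of all 17416 genes higher and 274 lower. DESeq2 called 2 Hox genes, *Hoxd3* and *Hoxd8* (0.299% of all genes called higher). Libraries with the same replicate number deviated together in this population, and with the replicate number as a block, 10 Hox genes were higher and 0 lower, against 3.2% and 4.92% of all genes. The 10 were *Hoxb6*, *Hoxb8*, *Hoxb9*, *Hoxc8*, *Hoxc10*, *Hoxd3*, *Hoxd4*, *Hoxd8*, *Hoxd9* and *Hoxd10*.

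The 5 HoxD genes again had like shifts. *Hoxd9* had 64.0, 48.6 and 73.8 CPM in the control against 87.8, 71.0 and 113 CPM in the mutant Thy1+ libraries. *Hoxd8* had 39.5, 34.1 and 41.9 against 57.5, 48.2 and 68.0 CPM. Library 3 was the highest and library 2 the lowest in control and mutant for both genes. *Hoxd4* had 25.5, 21.1 and 31.8 CPM in controls against 36.8, 33.6 and 50 CPM in mutants. *Hoxd3* had 14.0, 11 and 15.2 against 19.8, 20.6 and 23.0 CPM. *Hoxd10* had 15.3, 10.7 and 14.7 against 23.0, 16.6 and 22.7 CPM. Of the 5, only the groups of *Hoxd9* overlapped, and for each of them every mutant library exceeded the control library with its number. Without the block their log2 fold changes were 0.55 ± 0.20, 0.59 ± 0.15, 0.62 ± 0.20, 0.67 ± 0.16 and 0.62 ± 0.19 (SE, adjusted p from 0.23 to 0.355, edgeR), in the order *Hoxd9*, *Hoxd8*, *Hoxd4*, *Hoxd3* and *Hoxd10*. With it, the SE of *Hoxd9* fell to 0.06 around a log2 fold change of 0.55 (adjusted p = 1.3e-05, edgeR).

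In cluster C, *Hoxc6* had 11.3, 8.62 and 19.9 CPM in control against 15.9, 14.8 and 21.9 CPM in mutant Thy1+ libraries and missed the fold limit under the block (0.47 ± 0.12, adjusted p = 0.0092, edgeR). *Hoxc8* had 5.10, 4.01 and 6.13 against 7.20, 6.66 and 9.27 CPM. *Hoxc10* had 3.60, 3.58 and 4.66 against 5.67, 5.54 and 6.67 CPM. The groups of *Hoxc8* and *Hoxc10* did not overlap, and both genes passed under the block, with log2 fold changes of 0.61 ± 0.16 and 0.61 ± 0.18 (adjusted p = 0.0078 and 0.016, edgeR). *Hoxc4* had 8.01, 5.15 and 7.58 against 8.23, 6.29 and 11 CPM. *Hoxc5* had 2.93, 2.47 and 5.75 against 4.89, 3.27 and 4.15 CPM, with control library 3 above all others. *Hoxc9* had 4.23, 4.15 and 4.05 against 5.70, 3.64 and 5.77 CPM. The groups of these last 3 genes overlapped.

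In cluster B, *Hoxb9* had 11, 3.50 and 4.05 CPM in control against 13.4, 9.06 and 7.32 CPM in mutant Thy1+ libraries, with library 1 the highest in each group. Its SE went from 0.44 without to 0.18 with the block (log2 fold change 0.81, adjusted p = 0.0032, edgeR). *Hoxb6* had 3.06, 2.85 and 3.11 against 4.83, 3.89 and 5.25 CPM, without overlap. *Hoxb8* had 6.82, 5.69 and 4.22 against 9.01, 8.30 and 6.58 CPM, with the lowest mutant library just under the highest control. *Hoxb4*, the gene that fell in mutant c-Kit+ cells, had 5.19, 7.08 and 4.44 CPM in control against 5.38, 6.27 and 4.37 CPM in mutant Thy1+ libraries, a log2 fold change of -0.05 ± 0.25 (adjusted p = 0.934, edgeR). *Hoxb3*, *Hoxb2* and *Hoxb5* also overlapped between control and mutant. *Hoxb3* had 7.92, 8.84 and 6.91 against 6.65, 7.64 and 9.33 CPM. *Hoxb2* had 4.18, 3.90 and 1.11 against 2.69, 2.95 and 4.70 CPM. *Hoxb5* had 1.57, 1.98 and 1.14 against 1.79, 1.69 and 2.04 CPM.

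In clusters A and D the Thy1+ groups of 4 weaker genes overlapped. *Hoxa5* had 0.939, 0.624 and 1.30 CPM in control against 0.842, 1.03 and 1.23 CPM in mutant libraries. *Hoxa7*, a gene of the thoracic spine, had 2.06, 1.74 and 1.53 against 1.25, 1.51 and 1.75 CPM. *Hoxa9*, a gene of blood progenitors and of leukaemia, had 0.537, 1.41 and 0.749 against 1.47, 1.53 and 1.17 CPM. *Hoxd11* had 0.492, 0.515 and 0.666 against 0.923, 0.663 and 0.875 CPM. Of 16 further genes, 9 were tested, with log2 fold changes from -0.80 ± 0.62 for *Hoxc13* to 1.07 ± 0.51 for *Hoxa10*. The 7 genes left out for low counts in this population were *Hoxa11*, *Hoxa13*, *Hoxc11*, *Hoxc12*, *Hoxd1*, *Hoxd12* and *Hoxd13*. Of the 32 tested, 7 had mutant libraries all above and 0 all below the controls, against 6.49% and 10.7% of all genes.

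Whether the effect of the mutation differed between c-Kit+ and Thy1+ cells was tested by an interaction term over the 12 libraries. No Hox gene of 33 and no gene of 18002 tested was called (0%) by edgeR's quasi-likelihood test. At an unadjusted p under 0.05, 3 Hox genes passed, against 10% of all genes, and neither DESeq2 nor the replicate block (2.48% of all genes called) called a Hox gene. The effect in c-Kit+ minus that in Thy1+ cells was 0.45 ± 0.25 for *Hoxd9*, 0.63 ± 0.28 for *Hoxd10* and -0.82 ± 0.33 for *Hoxb4* (adjusted p = 0.574, 0.486 and 0.45, edgeR). A size difference between populations was therefore not established for any Hox gene, nor was its absence.

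Without the mutation, the Hox genes were far from even between the populations. Of 31 tested, 20 were higher in control Thy1+ and 1 in control c-Kit+ spermatogonia (edgeR's quasi-likelihood test), against 20.7% and 7.08% of all genes tested. The median log2 fold change, Thy1+ minus c-Kit+, was 1.43 over these 31 and 0.03 over all genes. *Hoxd9* had a log2 fold change of 1.79 ± 0.16, *Hoxd8* 1.46 ± 0.12, *Hoxd10* 1.87 ± 0.22, *Hoxc5* 2.16 ± 0.39 and *Hoxb6* 2.45 ± 0.28 (adjusted p from 5.9e-05 to 0.0037, edgeR). The steepest ratios belonged to weakly expressed genes, *Hoxa9* with 3.19 ± 0.63 and *Hoxa5* with 3.03 ± 0.57 (adjusted p = 0.0057 and 0.0045, edgeR). The others called higher in Thy1+ were *Hoxa7*, *Hoxb2*, *Hoxb3*, *Hoxb5*, *Hoxb8*, *Hoxc4*, *Hoxc6*, *Hoxc8*, *Hoxc9*, *Hoxc10*, *Hoxd3*, *Hoxd4* and *Hoxd11*.

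*Hoxd1* had 0.179, 0.217 and 0.0278 CPM in control Thy1+ against 0.408, 0.543 and 0.581 CPM in control c-Kit+ libraries and just missed the threshold (-1.78 ± 0.62, adjusted p = 0.0501, edgeR). *Hoxb9* was not called and had overlapping libraries (-0.44 ± 0.41, adjusted p = 0.427, edgeR), like *Hoxb4* (0.52 ± 0.25, adjusted p = 0.134). Of the 31 genes, 22 had all Thy1+ libraries above and 2 all below the c-Kit+ libraries, against 29.5% and 24.8% of all genes. Libraries with the same number deviated together here too, and under the block 21 Hox genes, *Hoxb7* now among them, were higher and 1 lower, against 21.8% and 8.38% of all genes. The call of *Hoxd11* was lost without control c-Kit+ library 2 or 3 or control Thy1+ library 3, with log2 fold changes of 1.79 to 1.96.

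Summed over the 39 genes, Hox transcripts amounted to 99.5, 103 and 97.1 CPM in control against 188, 152 and 183 CPM in mutant c-Kit+ libraries. In Thy1+ cells the sums were 250.0, 207 and 266 CPM in control against 333, 291 and 395 CPM in mutant libraries. The mutant libraries lay above the controls in both populations, with ratios of means of 1.74 and 1.41. By cluster, the ratio in c-Kit+ cells was 2.03 for D, 1.85 for C, 1.24 for B and 1.08 for A, and in Thy1+ cells 1.5 for D, 1.30 for C, 1.21 for B and 1.18 for A. Control and mutant libraries overlapped for cluster A in both populations and for clusters B and C in Thy1+ cells.

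The stromal list moved with the Hox sum (the plot of the Hox sum against marker sums). It amounted to 2285, 2135 and 1823 CPM in control against 4391, 3305 and 3395 CPM in mutant c-Kit+ libraries, a ratio of 1.78 with no overlap. In Thy1+ cells it amounted to 13943, 11212 and 14620.2 against 16802, 12551 and 19318 CPM, a ratio of 1.22 with overlapping libraries. In mutant c-Kit+ cells 36 of the 51 tested genes of the 8 somatic lists were called higher and 0 lower, among them 7 of 8 stromal, 9 of 10 Sertoli, 7 of 7 endothelial, 5 of 7 Leydig, 4 of 5 mast cell, 3 of 6 peritubular myoid, 1 of 7 macrophage and 0 of 1 erythroid genes (edgeR, 14.8% of all genes). Of the germ cell list, 0 of 8 were higher and 1 was lower, and its sum was 2951, 3234 and 2760.0 CPM in control against 2458, 2585 and 2264 CPM in mutant c-Kit+ libraries, all mutant values below all controls. In Thy1+ cells 0 of the 53 tested genes of the somatic lists were called, 50 of them with a positive log2 fold change and a median of 0.37 (edgeR). The Hox values were next set against these markers.

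Per 100 CPM of the stromal list, the Hox sum was 4.36, 4.82 and 5.33 CPM in control against 4.27, 4.60 and 5.38 CPM in mutant c-Kit+ libraries. These ranges overlapped almost wholly, with a ratio of means of 0.983. In Thy1+ cells it was 1.79, 1.84 and 1.82 CPM in control against 1.98, 2.32 and 2.04 CPM in mutant libraries, all mutant values above all control values, with a ratio of 1.16. Against the other somatic lists apart from the erythroid the Thy1+ ratio ran from 0.759 (Sertoli) through 0.963 (macrophage) to 1.14 (Leydig), each with overlap, and with mean log2 CPM in place of sums the log2 ratio over the stromal list changed from 0.22 to -0.033. In c-Kit+ cells the ratio ran from 0.619 (Sertoli) to 0.969 (peritubular myoid) over those lists, also with overlap. Between the control populations the Hox sum differed 2.41 times and the stromal list 6.37 times, so that the Hox sum per stromal CPM was lower in Thy1+ than in c-Kit+ libraries.

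The clusters parted on this measure. Per 100 CPM of stromal transcripts, cluster D had 2.40, 2.68 and 3.03 CPM in control against 2.88, 2.90 and 3.46 CPM in mutant c-Kit+ libraries, a ratio of 1.14 with overlap. Cluster C had a ratio of 1.04 with overlap. Cluster B had 1.07, 1.22 and 1.24 CPM in control against 0.671, 0.878 and 0.947 CPM in mutant libraries and cluster A 0.320, 0.378 and 0.386 against 0.163, 0.265 and 0.245 CPM, both lower in all mutant libraries, with ratios of 0.707 and 0.622. Relative to the stromal list, then, clusters A and B were lower in mutant c-Kit+ libraries and clusters C and D overlapped with the controls. The stromal sum itself had a ratio of 1.78, so a transcript with unchanged CPM is lower on this measure. Scaled by the stromal list alone, all genes tested had a median log2 fold change of -0.77. In CPM, clusters A and B did not fall, with ratios of 1.08 and 1.24.

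**Figure D3:**
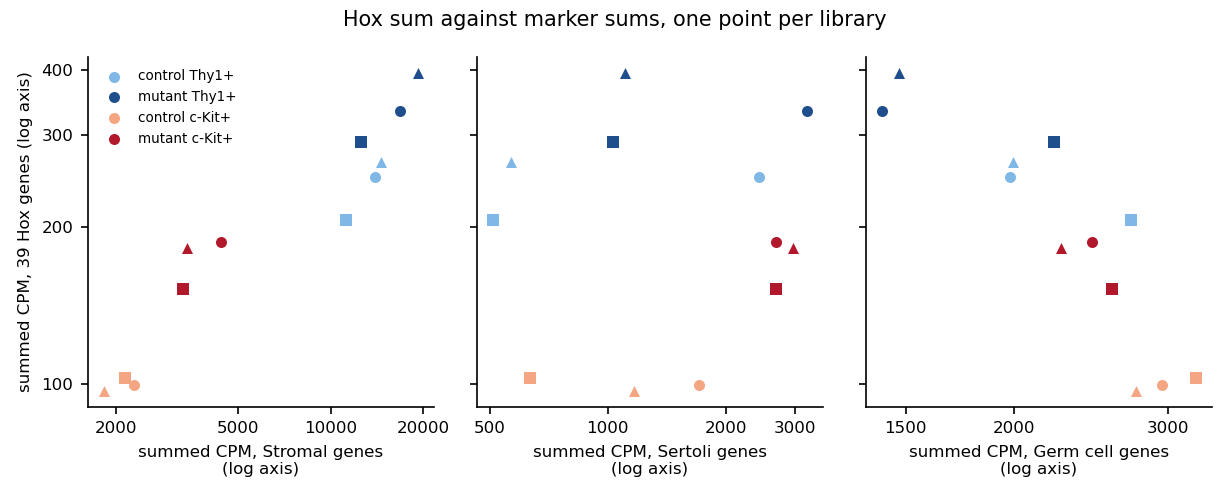
Summed CPM of the 39 Hox genes against the summed CPM of the stromal, Sertoli and germ cell lists, on log axes; each point is a library, colours are groups, and circle, square and triangle are replicates 1, 2 and 3. The Hox sum rises with the stromal sum from control c-Kit+ (97.1 to 103 CPM) to mutant Thy1+ libraries (291 to 395 CPM), and no such order appears against the Sertoli sum.

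The Hox genes were also fitted gene by gene on a scale set by somatic markers. In that fit the TMM factors were replaced by size factors over the genes of the 8 somatic lists, so a log2 fold change is relative to those genes. This shifts all genes by nearly the same amount, for example *Hoxd9* from 0.94 to 0.02 and *Hoxb4* from -0.94 to -1.88 in c-Kit+ cells. Where a gene lands thus follows from its value after TMM normalization. The fit cannot show whether a gene follows the markers from library to library. On it the median of all genes in c-Kit+ cells was -0.91, with 0.374% of 17134 genes called higher and 68% lower. Of the 27 Hox genes 0 were higher and 6 lower by edgeR's quasi-likelihood test. The 9 genes called higher after TMM normalization had log2 fold changes from -0.15 to 0.28 with SEs from 0.24 to 0.42 (adjusted p from 0.382 to 0.943, edgeR). *Hoxb9*, *Hoxc6* and *Hoxd8* were below 0 and the other 6 above it. These signs depended on the markers, since 8 of the 27 Hox genes were above 0 with the stromal list alone, 6 with all 8 lists and 0 with the Sertoli list alone. With all lists *Hoxd9* stood at 0.02 ± 0.24, *Hoxd4* at 0.11 ± 0.25 and *Hoxb9* at -0.15 ± 0.25. The 18 others had log2 fold changes from -1.88 to -0.20.

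Among the 6 called lower were *Hoxb4* (-1.88 ± 0.32), *Hoxb13* (-1.79 ± 0.52), *Hoxb3* (-1.20 ± 0.31), *Hoxa3* (-1.17 ± 0.40) and *Hoxb7* (-0.77 ± 0.34), with adjusted p from 1.1e-07 to 0.039 (edgeR). The call of *Hoxb7* was lost on a scale from the stromal list alone and without control library 2 or any of the mutant libraries, with log2 fold changes from -0.88 to -0.57. The share of all genes called lower on this scale is large, so the count of 6 in 27 is below the background. Relative to the shift of all genes, *Hoxa3*, *Hoxb3*, *Hoxb4* and *Hoxb13* lay below and *Hoxb7* above -0.91. In Thy1+ cells, on the same kind of scale, 0 of 32 Hox genes were called in either direction, the Hox median was -0.15 and the median of all genes -0.43, with 0.0172% of genes called higher and 2.95% lower. With each Thy1+ library left out the Hox median ran from -0.25 to 0.11, above 0 without control library 2 (0.08) or 3 (0.11), and the count of all genes called lower went from 513 to 5663 without control library 1 and 2852 without mutant library 2, to 82 without control library 2, 123 without mutant library 1 and 130 without mutant library 3, and to 0 without control library 3 or with the stromal list alone.

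Within groups, the Hox sum also varied with some marker sums and not with others. After subtraction of group means on the log2 scale, the Hox sum and the stromal sum had a Pearson r of 0.852 and a Spearman rho of 0.874 over the 12 libraries. The value was 0.967 over the 6 Thy1+ and 0.607 over the 6 c-Kit+ libraries, and 0.734 over 10 libraries without the 2 farthest from the median of the stromal sum. Same-numbered Thy1+ libraries deviated together, so the 6 Thy1+ values in this paragraph are not independent. The endothelial sum had an r of 0.664, the mast cell sum 0.676 and the Leydig sum 0.617, and these were 0.756, 0.694 and 0.727 without the 2 farthest libraries of each. The germ cell sum had -0.734, which became -0.406 without its 2 farthest libraries, whereas the Sertoli, macrophage and peritubular myoid sums had 0.111, 0.108 and 0.192. The erythroid sum, at most 4.89 CPM, had 0.551, which became -0.17 without the 2 farthest libraries. Cluster D alone had an r of 0.959 with the stromal sum over the Thy1+ and 0.606 over the c-Kit+ libraries. Cluster A had -0.303 and -0.494, and cluster B -0.254 and 0.205, so the relation with stromal transcripts was that of clusters D and C (0.863 and 0.485). Lists that do not mark a somatic cell type had values of like size, 0.662 for genes at the edges of the clusters, 0.685 for mesenchymal homeobox genes, 0.579 for the TALE cofactors and -0.713 for ParaHox and Evx genes, and the other 4 ran from -0.38 to 0.425. In all, 17 lists were compared with the Hox sum in libraries that share depth and normalization, and no test was made of these relations.

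Genes differed in the list they varied with. Of the 33 genes that passed the count filter over the 12 libraries, 6 had their highest r with the mean of the stromal list. Among them were *Hoxd10* (0.888), *Hoxd8* (0.833) and *Hoxd9* (0.774, against 0.764 with the Leydig list). *Hoxc8*, *Hoxc5* and *Hoxd4* had theirs with the Leydig list (0.843, 0.777 and 0.562) and *Hoxc4* with the endothelial list (0.816). The germ cell list was highest for 4 genes, including *Hoxb4* (0.656). The mast cell list was highest for 5 genes and the Leydig and erythroid lists for 4 each. The Sertoli, peritubular myoid and endothelial lists had 3 each and the macrophage list 1. The genes were thus spread over all lists, and each r named is the highest over these lists. For some weakly expressed genes even the highest r was low. It was 0.0865 for *Hoxa6* (erythroid), 0.144 for *Hoxa10* and 0.285 for *Hoxa9* (germ cell), and 0.228 for *Hoxc13* (Sertoli). The counts per list include these genes, of which *Hoxa6*, *Hoxa9* and *Hoxa10* had too few counts to be tested in c-Kit+ cells. Against the germ cell sum, r was 0.606 for *Hoxb4*, and fell to 0.281 without the 2 farthest libraries, on which the relation rests. Per 1000 CPM of the germ cell list, *Hoxb4* had 1.18, 1.51 and 1.26 CPM in control against 0.853, 0.706 and 1.13 CPM in mutant c-Kit+ libraries, all mutant values below all controls.

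*Hoxb9* varied with the Sertoli list. Its r with the mean of that list was 0.932, against 0.734 with the peritubular myoid, 0.535 with the endothelial and 0.117 with the stromal list. With the Sertoli sum it was 0.937 (rho 0.944) and 0.843 without the 2 farthest libraries. The Sertoli sum was 2438, 509 and 567 CPM in control Thy1+, 3233, 1032 and 1107 CPM in mutant Thy1+, 1709.9, 635 and 1169 CPM in control c-Kit+ and 2693, 2686 and 2973 CPM in mutant c-Kit+ libraries. Library 1 was the highest in both Thy1+ groups and in control c-Kit+ cells, in *Hoxb9* as in the Sertoli sum. In mutant c-Kit+ cells *Hoxb9* was highest in library 1 and the Sertoli sum in library 3. Per 1000 CPM of the Sertoli list, *Hoxb9* had 5.69, 11.6 and 7.50 CPM in control against 5.74, 5.50 and 5.05 CPM in mutant c-Kit+ libraries, in overlapping ranges. Before sorting, the cells had passed a strainer meant to hold back Sertoli cells and a plating step against other somatic cells. The part of Sertoli transcripts in the higher *Hoxb9* counts of mutant c-Kit+ cells was not tested.

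**Figure D4:**
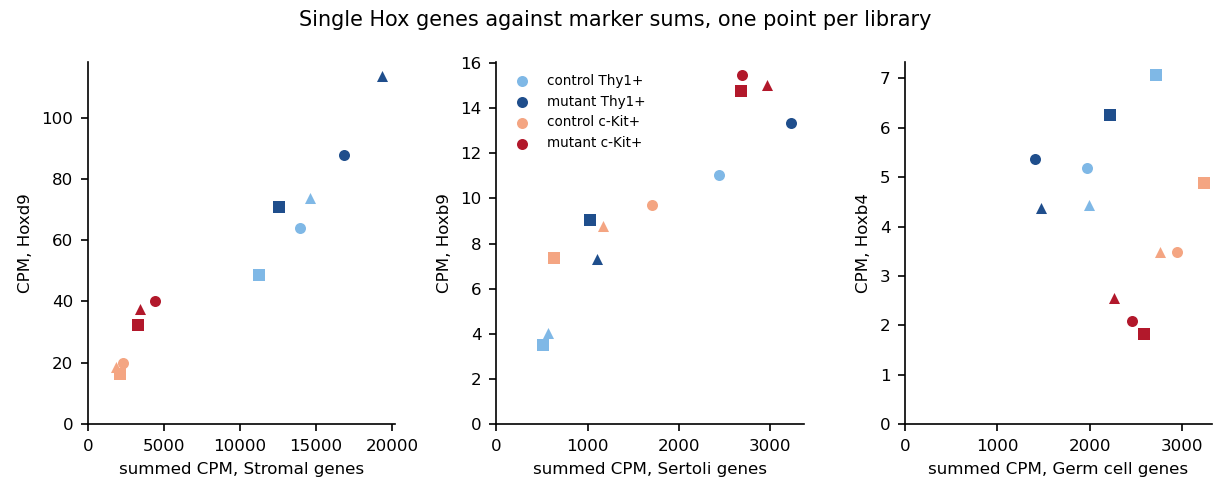
CPM of *Hoxd9* against the stromal sum, *Hoxb9* against the Sertoli sum and *Hoxb4* against the germ cell sum; each point is a library, colours are groups, and circle, square and triangle are replicates 1, 2 and 3. *Hoxd9* has its lowest values (16.5 to 19.8 CPM) in control c-Kit+ libraries, where the stromal sum is lowest, and *Hoxb9* its lowest (3.50 and 4.05 CPM) in the Thy1+ libraries with the lowest Sertoli sums.

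The cofactors with which Hox proteins bind DNA, homeodomain proteins of the TALE class, were measured for all 9 listed genes. In mutant c-Kit+ cells 4 were higher and 1 lower (edgeR), against 14.8% and 7.41% of all genes. On the somatic marker scale 0 were higher and 5 lower, against 0.374% and 68%. *Meis1* had 8.12, 7.92 and 8.48 CPM in control against 17.3, 16.7 and 19.5 CPM in mutant libraries, and *Meis2* and *Pknox2* were also called higher, with log2 fold changes of 1.09 (SE 0.21) and 0.91 (SE 0.14). *Pbx3* had 29.6, 51.0 and 39.8 CPM in control against 8.35, 7.96 and 7.26 CPM in mutant libraries, a log2 fold change of -2.41 (SE 0.18, adjusted p = 8.7e-05, edgeR), below all controls. In Thy1+ cells 0 of 9 were called, and *Pbx3* had 20.4, 28.5 and 24.8 CPM in control against 18.2, 14.2 and 19.7 CPM in mutant libraries.

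Of the genes that lie in or beside the clusters, *Mir196a-1*, the gene of a microRNA between *Hoxb9* and *Hoxb13*, was the only noncoding gene of 10 matched with enough counts to be tested. It had 1.02, 0.972 and 1.13 CPM in control against 2.54, 2.92 and 2.43 CPM in mutant c-Kit+ libraries (1.28, SE 0.25, adjusted p = 0.0026, edgeR), and moved in the direction of its neighbour *Hoxb9*. These are counts of long RNA over the gene, not of the mature microRNA. The 8 matched genes at the edges of the clusters gave 0 higher and 2 lower in mutant c-Kit+ cells, against 14.8% and 7.41% of all genes. These were *Lnpk* (-0.66, SE 0.15) beside cluster D and *Skap2* (-0.56, SE 0.10) beside cluster A, opposite in sign to the HoxD genes after TMM normalization. On the somatic marker scale 7 of the 8 were lower, against 68% of all genes, and *Mir196a-1* was not called (0.37, SE 0.39).

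Regulators that keep Hox genes silent or active were also counted. Of 12 listed Polycomb and Trithorax genes, 0 were higher and 3 lower in mutant c-Kit+ cells (edgeR), against 14.8% and 7.41% of all genes. On the somatic marker scale 12 of 12 were lower, where 68% of all genes were. *Kmt2a*, which sustains Hox expression, had 299, 344 and 274 CPM in control against 187, 202 and 170.4 CPM in mutant libraries (-0.77, SE 0.09), and *Ezh2*, the H3K27 methyltransferase of Polycomb, had 61.0, 76.3 and 77.4 against 49.2, 49.7 and 46.6 CPM (-0.62, SE 0.10). *Kdm6a*, an H3K27 demethylase, was the third (-0.83, SE 0.14). The part of these genes in the Hox levels was not tested.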

How the data were processed

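Of the 42 samples in the series, 12 RNA-seq libraries were used, and the 30 ChIP-seq and input samples are not analysed here. The authors deposited raw read counts per gene, without normalization, from paired-end reads trimmed with Trimmomatic 0.39, mapped to mm10 with HISAT2 2.1.0 and counted on RefSeq exons with featureCounts (the header names 2.0.3). Its command counted reads rather than fragments, so 65.6% to 69.6% of counts from 1 to 19 were even, and it set no strand. Pairs of libraries of a group differed by more than sampling noise (chi-square per degree of freedom 10.8 to 76.7). Symbols came from RefSeq by gene ID for 25275 genes.

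Counts were tested with edgeR 4.0.16 in R 4.3.3 (TMM, filterByExpr, quasi-likelihood F test, two-sided, Benjamini-Hochberg over all genes tested), called at an adjusted p under 0.05 with a log2 fold change beyond 0.5 in either direction. The SE is the absolute log2 fold change over the root of F. Alternatives were the exact test, DESeq2 1.42.0, other scalings, filters and thresholds, a fit of 12 libraries, a replicate block and each library left out. The somatic marker scale used median-of-ratios factors over markers with a mean count of at least 10. In simulated data with 200 genes changed by 1.5 on the log2 scale, 160 were recovered for the c-Kit+ comparison (17071 genes). Deviations of same-numbered libraries from their group means correlated at 0.241 to 0.448 in the Thy1+ comparison and 0.116 to 0.261 between controls, over 0.1 in every pair, so those numbers were taken as pairs from the data. Values in every library are given for the Hox genes called in a comparison after TMM normalization and the 10 with the highest mean CPM, and other genes are given by counts over lists, by name where a result turns on them. Results of 2 genes are not reported here. The members and lists were chosen with earlier results of these data known.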

Additional observations from a re-analysis of the deposited data

How the results depend on the processing

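The counts of 9 Hox genes higher and 1 lower in mutant c-Kit+ cells stayed within 1.5 times under every alternative apart from the somatic marker scale, from 7 to 10 higher and 1 lower with each library left out. The replicate block gave 9 and 1 there (15.8% and 7.51% of all genes). Deviations of same-numbered libraries correlated weakly in this comparison, at 0.083 to 0.107, against -0.0636 to -0.0322 for other pairs. They were not taken as pairs, since not every value was over 0.1. In Thy1+ cells the 0 genes called higher became 2 with DESeq2 and 10 with the replicate block, and stayed 0 under the other alternatives. The block gave 21 and 1 between controls and 0 for the interaction, and it gave 7 lower in c-Kit+ and 0 lower in Thy1+ cells on the somatic marker scale (69.8% and 6.81% of all genes lower). The 1 gene higher in control c-Kit+ cells became 2 with the exact test, with DESeq2 size factors and with library size only, and ranged from 0 to 2 with each library left out. Taking mean log2 CPM in place of sums changed the log2 ratio of the Hox level in c-Kit+ cells from 0.80 to 0.52, and that of Hox over stromal from -0.025 to -0.32 in c-Kit+ and from 0.22 to -0.033 in Thy1+ cells, because every Hox gene then has the same weight. Of the 10 genes called in c-Kit+ cells, 2 changed sign in Thy1+ cells with a library left out, *Hoxb4* (-0.21 to 0.17, above 0 without control library 2 or mutant library 3, where it was 0.166 and 0.0638) and *Hoxc5* (-0.064 to 0.60, below 0 without control library 2). Depth limits the genes numbered 11 to 13, of which 2 of 9 could be tested in c-Kit+ cells.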

Other observations

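Other homeobox and lineage genes were counted from lists in the same fits. In mutant c-Kit+ cells, 4 of 6 tested regulators of the gonadal ridge were higher and 0 lower (*Gata4*, *Lhx9*, *Nr5a1* and *Wt1*, log2 fold changes of 1.06, 0.66, 1.10 and 1.05, edgeR), genes that Sertoli, Leydig and interstitial cells express, and 0 were higher on the somatic marker scale. Over all genes 14.8% were higher and 7.41% lower, and 0.374% and 68% on the somatic marker scale. Of 8 tested mesenchymal homeobox genes, 2 were higher and 1 lower, and 0 and 2 on that scale, with the same shares of all genes. *Prrx1*, a gene of limb and connective tissue mesenchyme, had 4.75, 4.46 and 2.88 CPM in control and 9.0, 8.35 and 7.47 CPM in mutant c-Kit+ libraries.

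Of 16 genes listed as regulators of other lineages, 8 had enough counts to be tested in c-Kit+ cells. There 1 was higher and 1 lower, and 1 and 2 on the somatic marker scale, with the shares of all genes as above. A place on this list does not exclude a role in germ cells. *Sox17*, a gene of endoderm and of arterial endothelium, had 0.990, 0.172 and 0.552 CPM in control and 5.05, 2.00 and 1.91 CPM in mutant libraries, and *Sox10* was the gene that was lower (-0.67, SE 0.16). Of 8 ParaHox and Evx genes, 2 could be tested and 0 were called, and *Cdx4* was at 0 in all 12 libraries. *T*, placed on the list of lineage regulators as a mesoderm gene, had 8.25, 4.83 and 4.36 CPM in control and 1.55, 2.75 and 1.07 CPM in mutant Thy1+ libraries without overlap. It was not called (log2 fold change -1.68, SE 0.40, adjusted p = 0.24, edgeR). Control c-Kit+ libraries had 0.408, 0.229 and 0.349 CPM, so among controls *T* was mainly a transcript of the Thy1+ population. Whether spermatogonia or other cells made it was not tested. *T* was chosen for naming after its values were seen.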
